A study of Mus musculus with 6 samples.

Results

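The transcripts of 9 genes that mark radial glia and Müller glia were measured in retinal ganglion cells (RGCs) sorted by the laterality of their axons. The genes are Slc1a3, Slc1a2, Fabp7, Vim, Nes, Glul, Gfap, Rlbp1 and Aldoc, out of 18193 genes that the array annotation names alone on a probe set, a group of short probes read together as 1 value. Every probe set annotated to exactly 1 of these symbols was taken, which gave 26 of 45037 probe sets. In each of 3 rounds, a rhodamine dextran dye was placed on the cut optic tract of wild-type C57BL/6J embryos, aged E16.5 in the methods and E16 in the labels, and was carried to the cell bodies over 2 h. Well-labeled retinas of 2 litters were pooled by side, ipsilateral or contralateral to the dye, and living dye-filled cells were sorted, so that a round gave 1 ipsilateral and 1 contralateral sample and each of the 6 arrays holds cDNA amplified from a pool of animals. The rounds hybridized were chosen in the study for high Zic2 in the ipsilateral cells. The values are log2 intensities, and every difference below is ipsilateral minus contralateral on the log2 scale. A call was a 2-fold or larger change with a Benjamini–Hochberg adjusted p under 0.05 from limma, which pools the spread of all probe sets, over 36029 probe sets whose mean log2 value reached 4.74, called the filter level. Intensities of different probe sets are not comparable as transcript levels, so levels are compared only within a probe set.

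Radial glia are the dividing stem cells of the embryonic nervous system that span its wall and guide new neurons. In the retina the comparable cells are the multipotent progenitors of the neuroblastic layer, and the Müller glia, the last cell type that these progenitors produce, keep many of the same transcripts. Vim and Nes encode intermediate filament proteins of progenitors, Fabp7 a fatty acid binding protein of radial glia, and Slc1a3 the glutamate transporter GLAST. Glul (glutamine synthetase), Rlbp1 (the retinaldehyde binding protein CRALBP), Slc1a2 (the glutamate transporter GLT-1), Aldoc (a glycolytic aldolase) and Gfap (the filament protein of astrocytes and of reactive Müller glia) mark more mature glia. Of these genes, cone photoreceptors and some bipolar cells also express Slc1a2, pigment epithelium also expresses Rlbp1, and endothelial and mesenchymal cells also express Vim. Slc1a3, Fabp7, Nes and Vim stand in the study's own list of genes that differ on these arrays, so their direction here is not independent evidence. That list, made with other software at the same thresholds, is longer than the calls here and also holds probe sets lower in ipsilateral RGCs. It includes 1426341_at of Slc1a3, 1418289_at of Nes and 1450641_at of Vim, which are not called below. A probe set not called here is thus not shown to be unchanged.

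The sorted samples carried RGC transcripts on both sides, together with transcripts used as markers of microglia and of retinal progenitors. The mean log2 value over 10 measured pan-RGC genes was 10.8 to 11.4 in ipsilateral and 11.2 to 11.7 in contralateral samples. All 10 were lower in ipsilateral RGCs in all 3 rounds (20.2% of the 15346 genes measured), with a median difference of −0.36 and 0 called. All 12 microglia and macrophage genes were higher in ipsilateral RGCs in every round (17.6% of all genes). Their mean levels were 8.83 to 9.77 in ipsilateral and 4.55 to 5.49 in contralateral samples. Of the 12, 10 were called (0.358% of all genes). C1qb, Csf1r and Ctss differed most, at 5.88, 5.68 and 5.29, and the others called were Laptm5, Cd53, C1qc, Tyrobp, Ly86, Aif1 and Mpeg1. In the fit with rounds as a block, which pairs the samples of a round, 9 were called (0.319% of all genes) and Cd53 was not. All 10 retinal progenitor genes were also higher (47.5% of all genes), with mean levels of 9.39 to 10.8 in ipsilateral and 8.21 to 8.29 in contralateral samples. For Lhx2, which is on this list, the study reports weaker or time-limited expression in ipsilateral RGCs themselves. The array medians were 5.81, 6.70 and 6.33 in ipsilateral and 5.80, 6.65 and 6.26 in contralateral samples of rounds 1 to 3. In a bulk sample, fewer cells of a type and less RNA per cell cannot be told apart. Which cells the marker transcripts came from was not tested, nor was the part that other cells in the sorted samples had in the differences below.

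The 3 genes with the largest differences, Slc1a3, Fabp7 and Nes, are shown first by their promoters, together with that of Gfap, whose brightest probe set differed least. The sequences are the 250 bases before the annotated start of each gene, read 5′ to 3′ on the gene's strand, from RefSeq on GRCm38.p6 (Slc1a3 at chr15:8710808-8711057, minus strand, Fabp7 at chr10:57784673-57784922, plus strand, Nes at chr3:87970843-87971092, plus strand, and Gfap at chr11:102897201-102897450, minus strand). Capitals mark matches on either strand to TGGGAA (the core bound by RBPJ, the DNA-binding partner of Notch), TTCNNNGAA (STAT), AACAAT (SOX) or TATAAA (the TATA box).
Slc1a3: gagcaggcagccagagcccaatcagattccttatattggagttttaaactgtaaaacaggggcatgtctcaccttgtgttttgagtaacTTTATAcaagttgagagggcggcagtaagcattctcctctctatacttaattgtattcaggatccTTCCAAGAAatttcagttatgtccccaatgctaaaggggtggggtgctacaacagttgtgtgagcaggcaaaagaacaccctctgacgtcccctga
Fabp7: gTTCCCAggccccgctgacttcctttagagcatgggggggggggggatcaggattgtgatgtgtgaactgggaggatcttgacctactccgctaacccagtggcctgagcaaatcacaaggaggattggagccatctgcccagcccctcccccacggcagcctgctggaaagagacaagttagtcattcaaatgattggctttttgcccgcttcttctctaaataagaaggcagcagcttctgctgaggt
Nes: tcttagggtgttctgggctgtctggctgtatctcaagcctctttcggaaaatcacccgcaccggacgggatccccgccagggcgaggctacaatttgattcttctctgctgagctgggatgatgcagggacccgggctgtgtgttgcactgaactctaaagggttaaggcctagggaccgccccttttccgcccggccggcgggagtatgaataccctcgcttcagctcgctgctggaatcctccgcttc
Gfap: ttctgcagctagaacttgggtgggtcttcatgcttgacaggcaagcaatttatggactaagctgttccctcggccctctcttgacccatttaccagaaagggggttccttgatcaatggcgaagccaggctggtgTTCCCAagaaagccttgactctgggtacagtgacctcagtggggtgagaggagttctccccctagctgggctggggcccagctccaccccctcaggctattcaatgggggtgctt
Among 32851 promoter windows of this length, 21.6% held TGGGAA, 7.02% TTCNNNGAA, 9.42% AACAAT and 12.4% TATAAA. The Slc1a3 window held 1 STAT match, at bases −96 to −88 from the start, and 1 TATA match on the reverse strand. Fabp7 had 1 RBPJ match at bases −249 to −244 and Gfap 1 at bases −115 to −110. The Nes window held no match, and the matches in these windows did not overlap.

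Gene by gene, with the probe set of the highest mean standing for each, all 9 genes were higher in ipsilateral than in contralateral RGCs by their mean difference, as were 47.5% of the 15346 genes measured. In 7 genes this held in each round (17.6% of all genes), the exceptions being Slc1a2 and Gfap, and 0 were lower in each round (20.2%). Slc1a3, Fabp7 and Nes were 2-fold or more higher (2.75%, with 0.222% lower) and had no overlap between the sides, with 3 of the 9 genes entirely above (3.84%) and 0 entirely below (1.98%). The median difference was 0.72, against −0.01 over all genes. Fabp7 alone was called (0.358% of all genes were called as higher and 0% as lower), and with rounds as a block 0 of the 9 were called (0.319% of all genes). Over the 23 probe sets that reached the filter level, 3 were called, 2 of Slc1a3 and 1 of Fabp7, and 0 were called as lower, against 0.244% higher and 0% lower of all probe sets. With the rounds as a block, 1 probe set of Slc1a3 was called (0.208% of all probe sets). Of the same 23 probe sets, 21 were higher on average (47.3% of all probe sets), 15 in each round (16.7%), and 0 were lower in each round (19.7%). A 2-fold or larger difference was seen at 8, all higher (2.32%, with 0.33% lower). The ipsilateral arrays lay entirely above the contralateral arrays at 8 (3.26%) and entirely below at 0 (2.03%). Before adjustment, limma gave 7 of the 23 a p under 0.05 together with a 2-fold difference, all of them higher (2.05% of all probe sets, with 0.239% lower).

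**Figure D1:**
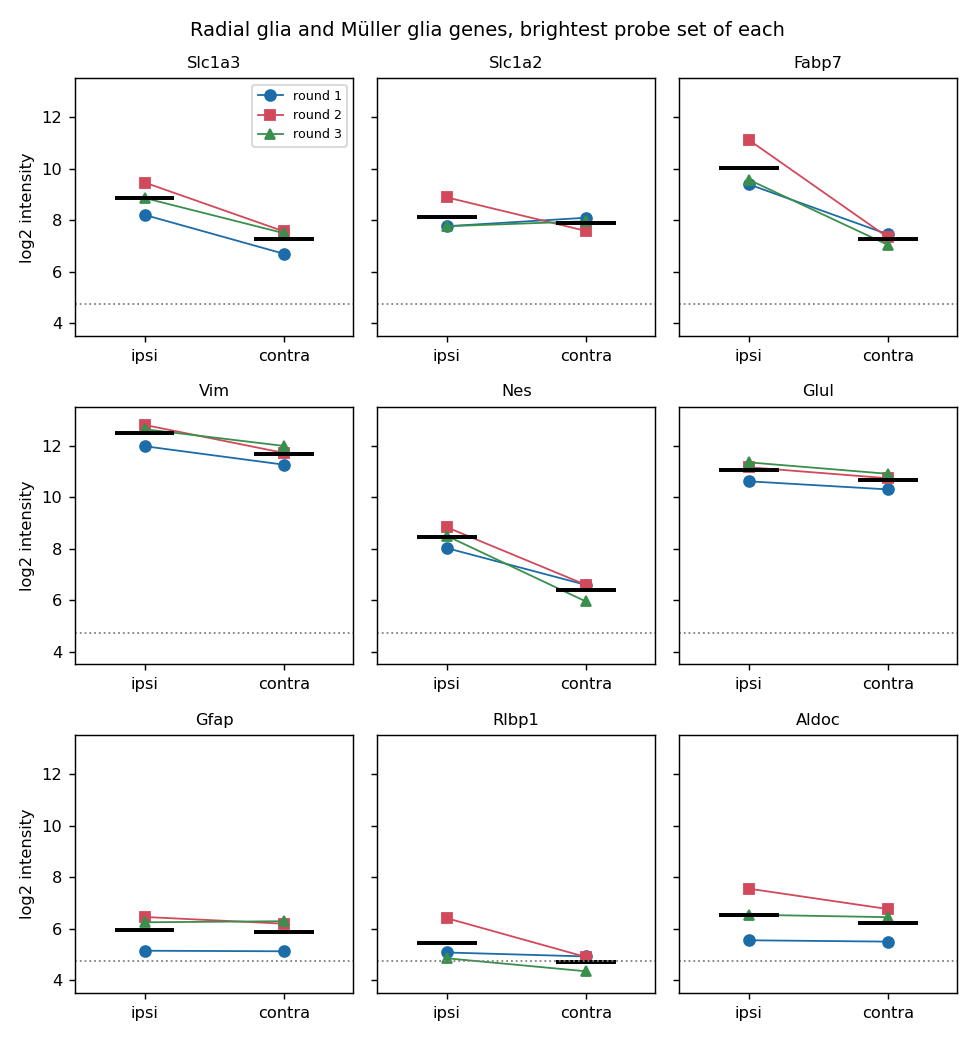
Log2 intensity (vertical axis) of the brightest probe set of each of the 9 genes in ipsilateral (ipsi, left) and contralateral (contra, right) RGCs. Each symbol is 1 array, thin lines join the samples of a round, black bars are means of 3 arrays and the dotted line is the filter level of 4.74. Slc1a3, Fabp7 and Nes have every ipsilateral array above every contralateral array, and the other 6 genes overlap between the sides.

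Fabp7, also called brain lipid binding protein, was measured by a single probe set. Its log2 values were 9.39, 11.11 and 9.57 in ipsilateral samples of rounds 1 to 3, against 7.44, 7.33 and 7.04 in contralateral samples. The lowest ipsilateral value lay above the highest contralateral value, and the ipsilateral sample of round 2 stood above the others. Fabp7 averaged 10.02 ± 0.95 on the ipsilateral side and 7.27 ± 0.21 on the contralateral side (SD, n = 3 each). Fabp7 rose 6.74-fold, a difference of 2.75 (SE 0.48 and adjusted p = 0.0301 by limma, 0.0806 with rounds as a block). The adjusted p was 0.0528 without contralateral replicate 1, 0.0930 without contralateral replicate 3 and 0.0608 after a second quantile normalization. Without both arrays of round 2, a setting chosen after the values were seen, the difference of Fabp7 was 2.24 (limma adjusted p = 0.301).

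Slc1a3, the transporter that clears glutamate into glial cells, was measured by 6 probe sets, and these did not give the same size of difference. The probe set with the largest difference, 1426340_at, had log2 values of 8.01, 9.12 and 7.83 in ipsilateral and 5.68, 4.85 and 4.97 in contralateral samples. It rose 8.92-fold, a difference of 3.16 (SE 0.46, adjusted p = 0.00905 by limma, 0.0706 with rounds as a block), and differed by 2.60 without round 2 (adjusted p = 0.180). A further probe set, 1452031_at, had values of 7.64, 8.50 and 7.92 in ipsilateral and 5.15, 5.40 and 5.56 in contralateral samples. It rose by 2.65 (SE 0.40, limma adjusted p = 0.0124), was called as well with rounds as a block (adjusted p = 0.0316) and with any single array left out, and was not called without round 2 (adjusted p = 0.219) or by the unmoderated test. In both probe sets the sides were separated by more than the spread within a side.

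The brightest probe set of Slc1a3, 1426341_at, also had every ipsilateral array above every contralateral array but was not called. Its values were 8.20, 9.46 and 8.86 in ipsilateral and 6.69, 7.56 and 7.49 in contralateral samples, a difference of 1.59 (SE 0.45, adjusted p = 0.428 by limma, 0.0582 with rounds as a block). It was called once each array was centred on its median (adjusted p = 0.0470). Probe set 1440491_at differed by 2.34 (SE 0.57, limma adjusted p = 0.204) and varied most between rounds, with differences of 0.999, 4.47 and 1.56. Its contralateral mean of 4.48 lay under the filter level, so that its size is inexact. Probe set 1439072_at differed by 1.15 (95% interval −0.04 to 2.33 without the block). Its SE was 0.55, and 0.27 with rounds as a block, where the limma adjusted p was 0.199.

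Against these 5 probe sets, 1443749_x_at of Slc1a3 was nearly level, with 7.37, 8.28 and 8.08 in ipsilateral and 7.34, 8.03 and 8.10 in contralateral samples. Its difference was 0.09 (95% interval −0.82 to 1.0), which leaves out the mean differences of the other 5. The intervals of some of them overlap with it, as that of 1426341_at did (0.62 to 2.55), so this is not a test between probe sets. The difference of 1443749_x_at minus that of 1426340_at was −3.07 (exact permutation test, two-sided p = 0.10, the smallest that 3 arrays against 3 allow, and adjusted p = 0.427 over 32 within-gene pairs). Across the 6 arrays, values of 1443749_x_at had a Pearson correlation of 0.12 with 1426340_at, whereas 1426340_at and 1452031_at had 0.97. These correlations are descriptions over arrays that share rounds. The suffix _x_at marks a probe set whose probes may also match other transcripts.

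**Figure D2:**
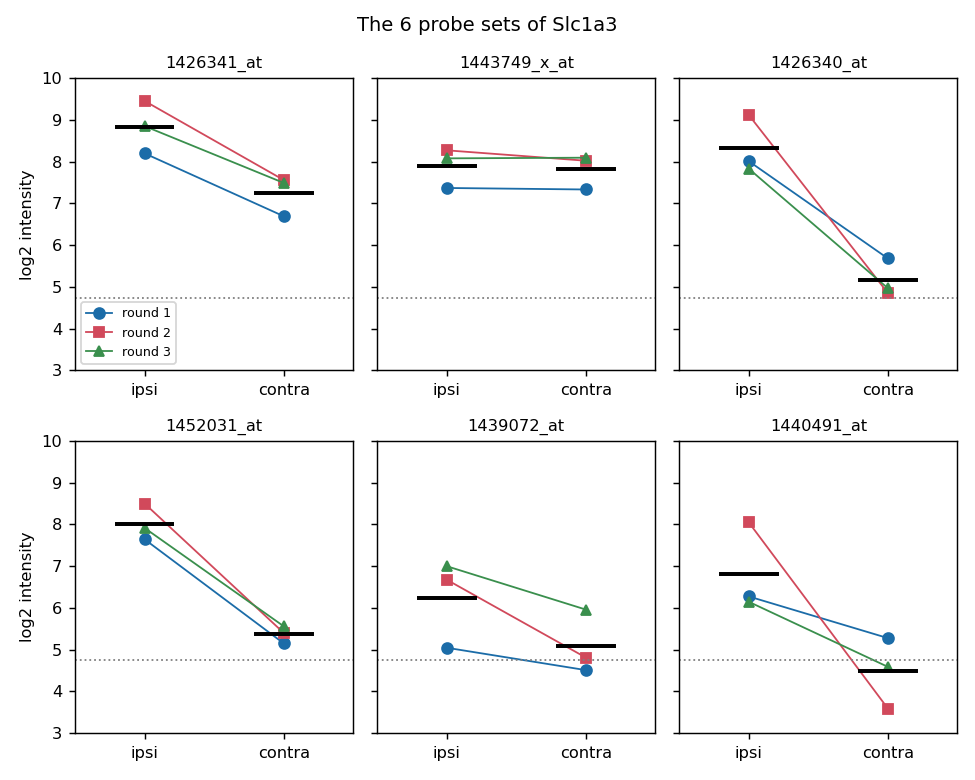
Log2 intensity (vertical axis) of the 6 probe sets of Slc1a3 in ipsilateral (ipsi, left) and contralateral (contra, right) RGCs. Symbols are arrays, thin lines join the samples of a round, black bars are means of 3 arrays and the dotted line is the filter level of 4.74. The sides lie 3.16 apart at 1426340_at and 0.09 apart at 1443749_x_at.

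Slc1a2, the other glial glutamate transporter on the list, showed no difference of that size at any of its 5 probe sets, which differed by −0.09 to 0.26. At the brightest, 1459014_at, the values were 7.76, 8.88 and 7.76 in ipsilateral and 8.09, 7.58 and 7.95 in contralateral samples, so the ipsilateral sample was higher in round 2 and lower in rounds 1 and 3. The difference was 0.26 (95% interval −0.67 to 1.19, limma adjusted p = 1), and −0.26 without round 2. The 95% intervals of the 5 probe sets reached at most 1.24, at 1451627_a_at, so that a difference as large as at 1426340_at or 1452031_at of Slc1a3 lies outside them.

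Of the other genes of glutamate transport and the glutamine cycle, 11 of 15 were measured, 5 were higher and 6 lower in ipsilateral RGCs, and 0 were called. Their median difference was −0.04. Slc17a6, the vesicular glutamate transporter of RGCs, differed most, at −0.92 (adjusted p = 1, with no overlap between the sides). Slc38a1 and Slc38a3, which carry glutamine, differed by −0.35 and −0.21. Slc7a11 and Slc17a7 lay under the filter level.

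Nes and Vim encode partner proteins of the progenitor cytoskeleton, and both were higher in ipsilateral RGCs in every round at each of their 3 probe sets. The brightest probe set of Nes, 1418289_at, had 8.02, 8.83 and 8.49 in ipsilateral and 6.59, 6.59 and 5.94 in contralateral samples. The sides did not overlap, and the difference of 2.07, or 4.20-fold, did not pass the threshold (SE 0.41, adjusted p = 0.0703 by limma, 0.0706 with rounds as a block). Nes passed without ipsilateral replicate 1 (adjusted p = 0.0135), with the filter at the 50th percentile (0.0185) and after median centring (0.0331). The other probe sets of Nes gave smaller differences, 0.66 at 1449022_at (95% interval −0.33 to 1.65) and 0.79 at 1453997_a_at (95% interval −0.09 to 1.68). Both intervals are from the fit without the block. With rounds as a block, their SEs were 0.17 and 0.27. The limma p values of that fit were 0.0092 and 0.028 before adjustment, and 0.210 and 0.292 after it. The difference of 1418289_at minus that of 1449022_at was 1.41 (exact permutation test, two-sided p = 0.10, adjusted p = 0.427 over the same 32 pairs).

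The probe sets of Vim were closer to each other. Probe set 1438118_x_at had 11.97, 12.80 and 12.63 in ipsilateral and 11.26, 11.71 and 11.98 in contralateral samples. The values of the sides touch, since the ipsilateral sample of round 1 lies just under the contralateral sample of round 3, but within each round the ipsilateral sample was higher. The differences of the 3 probe sets were 0.82, 0.93 and 1.11, each with a limma adjusted p of 1, and the lowest adjusted p of the blocked fit was 0.131. At 1456292_a_at the sides did not overlap, and at 1450641_at the difference was 2.17-fold (95% interval 0.16 to 2.07 on the log2 scale).

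Among 15 other intermediate filament genes, 7 were higher and 8 lower in ipsilateral RGCs, with a median difference of −0.10 and 0 called. Lmna, which encodes lamins of the nuclear envelope, differed by 0.998 without overlap between the sides, and Lmnb1 by 0.60. Nefh, the heavy neurofilament subunit of neurons, differed by −0.54. All 3 had an adjusted p of 1.

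Glul, Rlbp1 and Aldoc, which Müller glia use for glutamine, retinoid and sugar metabolism, differed by less than 2-fold and overlapped between the sides. Glul had values of 10.61, 11.16 and 11.35 in ipsilateral and 10.30, 10.73 and 10.90 in contralateral samples at 1426236_a_at. The difference was small and even over the rounds, 0.31, 0.43 and 0.44, with a mean of 0.40 (95% interval −0.48 to 1.27 without the block). Its SE was 0.41, and 0.14 with rounds as a block, where the limma adjusted p was 0.309. At its dimmer probe set, 1426235_a_at, the rounds gave −0.11, 1.29 and 0.79.

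Rlbp1 lay near the filter level, with 5.07, 6.40 and 4.84 in ipsilateral and 4.92, 4.90 and 4.34 in contralateral samples. Only the ipsilateral sample of round 2 stood clearly above the rest, and the difference was 0.72 (95% interval −0.28 to 1.73 without the block, limma adjusted p = 1). The SE of this difference was 0.47, and 0.28 with rounds as a block, where the limma adjusted p was 0.349. Of 8 genes of the visual cycle and retinoid handling that work with Rlbp1, 5 were measured, 4 higher and 1 lower, with 0 called. Rdh10, a retinol dehydrogenase, differed by 0.75 without overlap between the sides, Rdh11 by −0.61 and Rbp3 by 0.27. Rpe65, Rdh5 and Rgr, made in pigment epithelium (and Rgr also in Müller glia), lay under the filter level. Of 9 pigment cell genes 5 were measured, 2 higher and 3 lower with a median difference of −0.04 and 0 called, at mean levels of 5.19 to 6.29 in ipsilateral and 5.29 to 6.24 in contralateral samples, and Tyr, Tyrp1, Mlana and Gpr143 lay under the filter level. Their median difference in round 2 was −0.05. Mitf, a transcription factor of pigment cells, differed most, by 0.63 (1.57 in round 2), followed by Ttr, a thyroid hormone carrier, at −0.26 and Slc45a2, a melanosome transporter, at 0.14.

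Aldoc had 5.54, 7.55 and 6.54 in ipsilateral and 5.49, 6.76 and 6.44 in contralateral samples at 1451461_a_at. The samples followed their rounds more than their sides, and the difference was 0.31 (95% interval −0.82 to 1.45), with 0.79 in round 2 and at most 0.10 in the others. The other probe set of Aldoc lay under the filter level. Among 13 measured glycolytic enzymes 5 were higher and 8 lower, with 0 called. Hk2, a hexokinase of growing cells, differed by 1.49 (limma adjusted p = 0.394), and Hk1, the hexokinase of neurons, and Pfkm, a phosphofructokinase, by −0.60 and −0.44. Of 6 measured fatty acid and retinoid binding proteins besides Fabp7 and Rlbp1, 3 were higher and 3 lower, with 0 called. Crabp2 differed by 0.55, Rbp4 by 0.48, and Fabp5, a fatty acid binding protein, by −0.38, without overlap between the sides.

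Gfap differed little at the 1 probe set of 3 that reached the filter level. Probe set 1426508_at had 5.14, 6.45 and 6.24 in ipsilateral and 5.12, 6.19 and 6.28 in contralateral samples, a difference of 0.08 (95% interval −0.95 to 1.11). The probe sets 1426509_s_at and 1440142_s_at had means under the filter level and were left out of the test. With no filter, they differed by 0.51 (SE 0.64) and 1.46 (SE 0.89), each with a limma adjusted p of 1. The values of 1440142_s_at were 2.65, 7.62 and 4.40 in ipsilateral and 2.51, 3.53 and 4.25 in contralateral samples. A single array, ipsilateral round 2, thus stood far above the other 5, which all lay under the filter level. At 1426509_s_at the same array was highest as well, with 6.42 against 5.35 in its contralateral partner.

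The differences of the glial genes were mostly largest in round 2. Of the 26 probe sets, 20 had their largest difference in round 2, 2 in round 1 and 4 in round 3, and of the 23 at or above the filter level 18 had it in round 2, against 34.7% of all probe sets tested. Among the 9 genes it was 7, against 34.3% of all genes. The median difference of the 9 genes was 0.31, 1.30 and 0.50 in rounds 1 to 3, against 0.01, −0.02 and −0.03 over all genes. Without Slc1a3 and Fabp7 the median of the other 7 genes was 0.15, 1.09 and 0.44. Over the 6 arrays, Slc1a3 at its brightest probe set had Pearson correlations of 0.97 with Vim, 0.92 with Fabp7, 0.89 with Nes and 0.83 with Glul, and of 0.54 with Gfap and 0.48 with Slc1a2. Many genes outside the list correlated as highly. Ranked over all genes, Slc1a3 itself included, Vim stood at 46, Fabp7 at 213, Nes at 332 and Glul at 665. The genes outside the list with the highest correlation with Slc1a3 were Grn (progranulin, 0.992), Epas1 (a hypoxia-inducible transcription factor, 0.992), Ahnak (a large scaffold protein, 0.992), Pros1 (protein S, 0.989) and Gas2l3 (a cytoskeletal linker, 0.989). These 5 differed by 1.23 to 2.77, and 0 were called. The correlations are descriptions over 6 arrays that share rounds and sides.

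**Figure D3:**
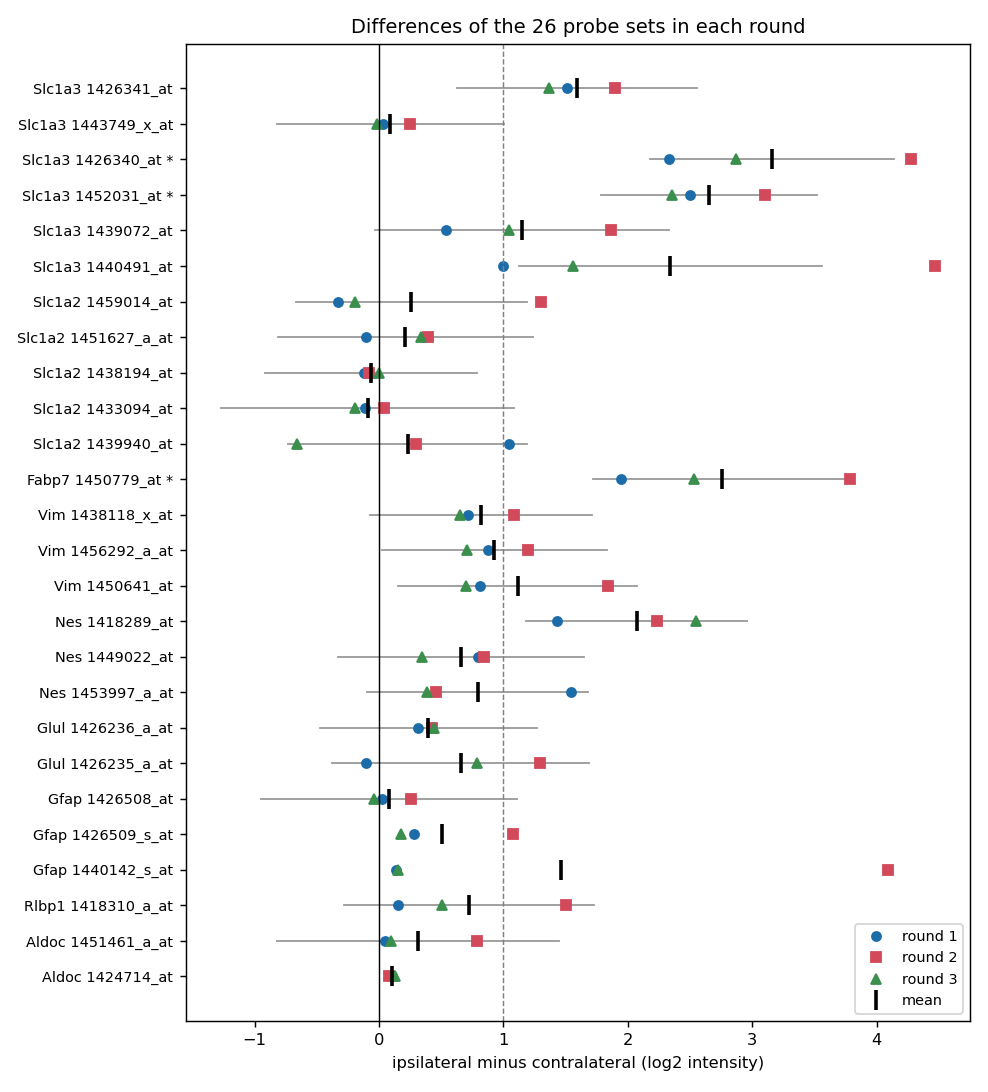
Ipsilateral minus contralateral difference in log2 intensity (horizontal axis) of the 26 probe sets of the 9 genes. Symbols are the 3 rounds, black ticks the mean, grey lines the 95% interval from limma without the block (drawn for the 23 probe sets at or above the filter level), stars the 3 called probe sets, and the dashed line a 2-fold change. Round 2 lies farthest to the right for 20 probe sets, among them Gfap 1440142_s_at at 4.09.

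Most other transcripts of radial glia and progenitors were also higher in ipsilateral RGCs, and 2 of them, Sox2 and Sox9, were called (0.358% of all genes). In the radial glia and progenitor list, 19 genes were measured and 16 were higher on the ipsilateral side (47.5% of all genes), 13 in each round (17.6%). Of these genes 10 were 2-fold or more higher (2.75% of all genes), and the median difference of the list was 1.09. Sox2 and Sox9, transcription factors of neural stem cells and glia, rose by 2.68 (adjusted p = 0.0475 by limma, 0.156 with rounds as a block) and 2.53 (adjusted p = 0.0275, and 0.0748 with that block). By in situ hybridization on sections of younger embryos, the study found Sox2 mRNA in progenitors and also in differentiated RGCs with Zic2. It saw none in dorsotemporal RGCs. Ttyh1, a membrane protein of neural stem cells, differed by 2.37 (adjusted p = 0.0684). Tnc lay under the filter level. Of 15 measured genes of Müller glia and astrocyte maturity, 12 were higher (47.5% of all genes) and 5 were higher in each round (17.6%). Their median difference was 0.38 with each gene at its brightest probe set, and 0 were called there. Cp (ceruloplasmin) differed by 1.89 (adjusted p = 0.286) and Mlc1, a membrane protein of astrocyte end feet, by 1.28. Sox8 differed by 1.37, but was lower in round 1 (−0.39) and overlapped between the sides. Gja1, a connexin, differed by 0.45 at its brightest probe set. The study's list holds other probe sets of Cp and Gja1 with larger differences. For Gja1 the study also reports weaker or time-limited expression in ipsilateral RGCs themselves. Aldh1l1, an enzyme of astrocytes, lay under the filter level.

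The round with the largest median was not the same for every list. The radial glia and progenitor list had medians of 0.56, 1.56 and 0.90 in rounds 1 to 3, with 12 of 19 genes highest in round 2, as for the 9 genes. The retinal progenitor list, which holds genes of dividing cells, had 1.13, 1.64 and 3.12, with 8 of 10 genes highest in round 3. Sfrp2, a Wnt antagonist of progenitors, rose by 2.29 (adjusted p = 0.0321 by limma, 0.0629 with rounds as a block), and Fgf15, Mki67 and Top2a differed by 2.63, 2.46 and 2.32. Microglia and macrophage genes had 4.95, 4.26 and 3.39, with 7 of 12 highest in round 1. Mesenchyme genes, with Col1a2 at 2.15, had medians of 2.64, 0.10 and 0.02. Of 6 measured endothelium and pericyte genes 3 were higher and 3 lower, with Kdr at 1.02, and Cdh5 and Tek lay under the filter level. Of 5 measured lens genes 1 was higher and 4 lower, with round medians of −0.07, 0.00 and 0.00. Whether the rounds differ between lists was not tested.

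**Figure D4:**
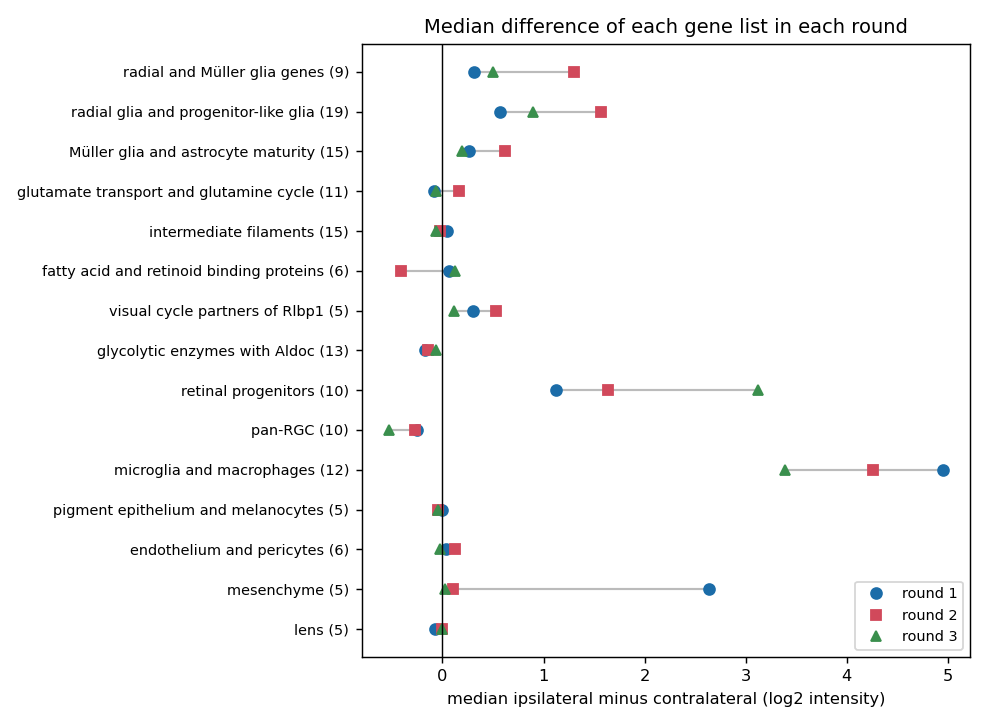
Median ipsilateral minus contralateral difference in log2 intensity (horizontal axis) of each gene list in each round, with the number of measured genes in parentheses and 1 symbol per round joined by a grey line. The radial and Müller glia genes are farthest from 0 in round 2 (1.30), the retinal progenitors in round 3 (3.12) and the mesenchyme genes in round 1 (2.64).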

How the data were processed

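Transcripts of ipsilateral and contralateral RGCs were measured on 6 Affymetrix mouse whole-genome arrays, 3 per side. Each deposited value is the log2 intensity of a probe set, which the authors computed with RMA (background correction, normalization and summary of probes) in Affymetrix Expression Console 1.1, per the submitters' processing notes. Array medians moved with the round, and whether the 6 arrays were normalized together is not given in the sources used here. The thresholds follow the methods, which name no test. The genome build of the probes is not given in the sources used here.

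From 45101 probe sets, 64 controls were left out, and 36029 at or above the 20th percentile of mean log2 value (4.74) were tested with limma 3.58.1 in R 4.3.3 without a block, after tests on simulated data. Of the 26 probe sets of the 9 genes, 3 lay under this level. 1 probe set that names Slc1a2 and another gene was left out. All 9 Entrez identifiers and all 9 promoters were found in the RefSeq tables. Sides were also compared within each round. Same-numbered arrays deviate together (correlations of 0.511, 0.541 and 0.612 after centring each side, against −0.353 to −0.207 for other pairs), and the study prepared both samples of a round alike, so the fit with the round (replicate number) as a block is given where it changes a call. The number of arrays limits the precision (median SE 0.44, and 0.17 with the block). Exact permutation tests cannot go below p = 0.10. Per the methods, replicates are independent rounds of labeling and sorting.

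The genes and lists were chosen with earlier results of these data known. Every gene of these other lists stands at its brightest probe set, so its other probe sets may differ. Named from each list were up to 3 genes with the largest difference and any called, and the 5 genes most correlated with Slc1a3. Gja1 and Lhx2 were named besides, for the study's results on them. Alternatives were rounds as a block, testing every probe set, a stricter filter (50th percentile), a further quantile normalization, median centring, limma's trend and robust options, array weights, an unmoderated test, another choice of probe set or their mean per gene, a 1.5-fold threshold and each array left out, and, chosen after seeing the data, both arrays of round 2 left out.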

Additional observations from a re-analysis of the deposited data

How the results depend on the processing

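Leaving out single arrays gave between 2 and 5 called probe sets and between 0 and 2 called genes, where all 6 arrays gave 3 and 1. The 5 probe sets and 2 genes came without ipsilateral replicate 1, and 0 genes were called if contralateral replicate 1 or contralateral replicate 3 was dropped. Over the whole array these fits called 53 (without ipsilateral replicate 3) to 220 probe sets (without ipsilateral replicate 1), and 56 without contralateral replicate 3, against 88. The blocked fit called 1 probe set and 0 genes (75 probe sets on the whole array). Median centring called 5 and 3 (107 on the whole array). Array weights, whose estimation stopped before it converged, called 7 and 3 (1149 on the whole array). The unmoderated test called 0 and 0 (0 on the whole array). A further quantile normalization called 0 genes (83 probe sets on the whole array). The stricter filter (125 probe sets on the whole array) and the trend with robust estimation (179) called 2 genes each. The mean of the probe sets (87 genes on the whole array) and the probe set of largest difference (88 probe sets) also called 2 genes each. Without round 2, which leaves 4 arrays, 0 probe sets and 0 genes were called (14 on the whole array). The count called as lower was 0 in each of these settings, and by limma 0 had an unadjusted p under 0.05 with a 2-fold decrease.

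At the brightest probe set of each gene, the sign of 3 small differences turned. Aldoc ranged from −0.19 to 0.81 as single arrays were left out (−0.19 without ipsilateral replicate 2 and −0.06 without contralateral replicate 1). Gfap ranged from −0.29 to 0.48 (−0.17 and −0.07 without ipsilateral replicates 2 and 3, and −0.29 without contralateral replicate 1), and was −0.016 with array weights and −0.010 without round 2. Slc1a2 ranged from −0.11 to 0.45 (−0.11 without ipsilateral replicate 2), and was −0.071 with array weights and −0.26 without round 2. At their brightest probe sets, Slc1a3, Fabp7, Vim, Nes, Glul and Rlbp1 had the same sign in every setting run. Among the other probe sets, the sign turned in some setting at the other 4 of Slc1a2 and at 1443749_x_at of Slc1a3, which stood at −0.09 when ipsilateral replicate 2 was dropped and at −0.15 when contralateral replicate 1 was. Why a call was gained or lost was not tested.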
